A study of Owenia fusiformis with 9 samples.

Results

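Of the 9 adult RNA-seq libraries of the annelid *Owenia fusiformis*, 2 were taken from the anterior end: one of the head, and one of the head together with the chaetae. The transcripts compared between these 2 libraries were those with a normalized read count of 50 or more in either of them, 17182 of the 31911 transcripts listed (15393 of 26974 genes). For each, the difference was the log2 of the head value over the head plus chaetae value after 10 was added to both, which understates the change of transcripts with low values, and transcripts past a 4-fold difference on that scale are described below as higher in one or the other library. The limits cut through a continuous distribution. The lowest higher value of a transcript inside the limit of 50 was 50.02 and the highest outside it was 49.9, with 536 transcripts between 50 and 55 and 534 between 45 and 50.

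The adult tissues were profiled in the study to sort genes into anterior and trunk or posterior ones. A gene counted as anterior there only when expressed in both of the 2 anterior samples. The head library came from a pool of 5 females, as did the tail library, and the head plus chaetae library is labelled male, with the chaetae of the study's dissections credited to 1 male. The methods describe these 2 samples as the head and the head with the 2 foremost body segments. No label names the segments, but only 2 libraries are anterior, so by elimination head plus chaetae is taken as the sample with them. It would then hold body wall and muscle of those segments, and the overlaps with trunk tissues below cannot be told apart from that. Body wall, midgut (labelled gut) and ovary are labelled female, and blood vessel, retractor muscle and testis male. All worms were adults kept in artificial sea water with mud and fed algae, of unstated age and genotype, and no tissue had a second library. Sex, the number of worms and the dissected region therefore differ together between the 2 anterior libraries and cannot be told apart, no p-value is given, and the intervals below cover counting error only.

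In *O. fusiformis*, a tube-dwelling worm, the head bears a crown of branched tentacles used in feeding. Chaetae are bristles of chitin and protein that annelids grow from pits of the epidermis, each built at the surface of a specialized cell at the base of its follicle and moved by muscles attached to the follicle. The annelid body wall consists of a glandular epidermis over layers of muscle, and the retractor muscles pull the anterior end back. The files do not pair the transcript identifiers with gene names, and a search of the reference table, which lists 27038 genes, matched 0 of the 31911 identifiers, so that the tissue labels were not checked against marker genes and transcripts are described by their levels across the 9 libraries.

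The head library held about 16618889 reads and the head plus chaetae library about 19034112, within the range of 14608988 to 22177997 over the 9 libraries, as recovered from the spacing of the low values. A single read was worth 0.598 in head and 0.600 in head plus chaetae, so that these 2 columns were on nearly the same scale per read. In the retractor muscle and testis columns a read was worth 2.75 and 5.53, and the 10 most abundant transcripts took 66.5% and 77.4% of the column, against 7.34% in head and 10.4% in head plus chaetae. Levels in those 2 columns are therefore also given below as CPM, the value per 1000000 of the column's sum.

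Transcripts of similar level were the majority. The log2 difference had a median of 0.09, quartiles of −0.79 and 0.83 and an SD of 1.66 over transcripts, and 10007 transcripts (58.2%) were within 2-fold. Higher in head were 1376 transcripts (8.01%), and higher in head plus chaetae 1650 (9.60%). Rescaling both columns to CPM moved the median to 0.31 and turned the larger side over, with 1618 transcripts higher in head and 1391 higher in head plus chaetae. The most extreme differences lay on the head plus chaetae side under the deposited scaling: 11 transcripts were past 1000-fold there and 1 was in head.

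**Figure D1:**
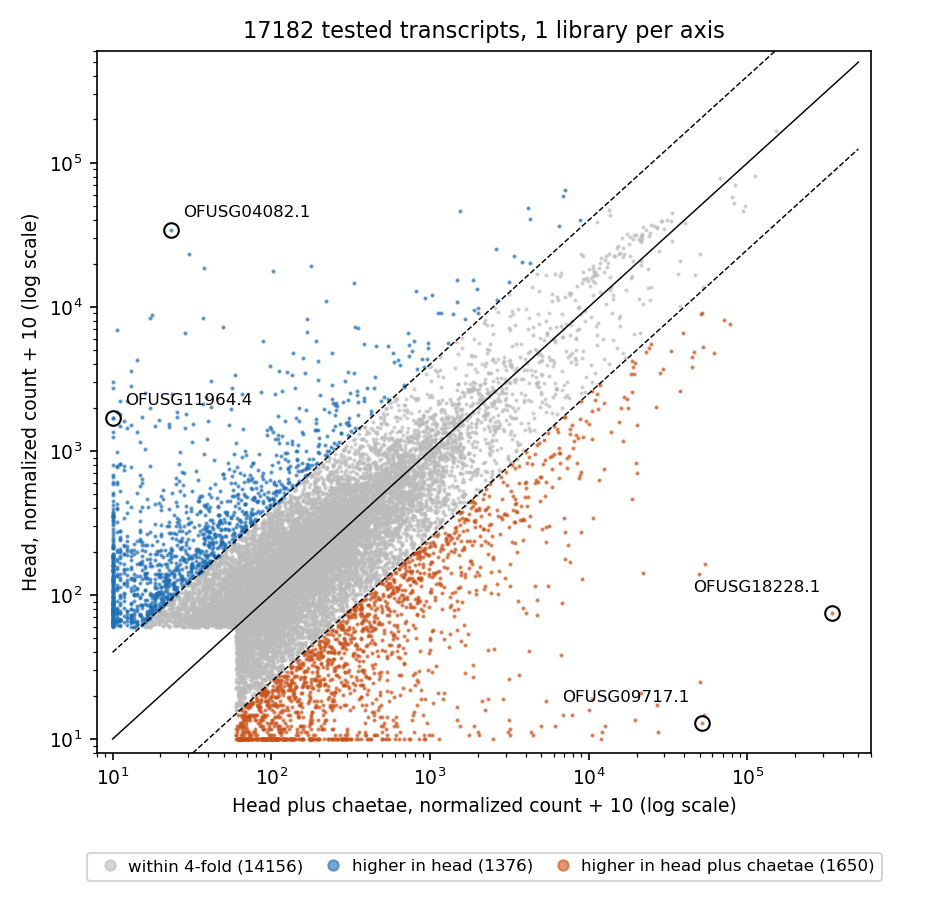
Normalized read counts plus 10 of the 17182 transcripts, head (vertical) against head plus chaetae (horizontal), both on log scales; the solid line is equality, the dashed lines a 4-fold difference, and circles mark the 4 named transcripts. The cloud is centred close to equality, with 1376 transcripts above the upper dashed line and 1650 below the lower one.

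What was higher in head plus chaetae made up more of its library than the reverse. The 1650 transcripts had a median of 327 there against 21.5 in head, and summed to 29.5% of the head plus chaetae library and 3.05% of the head library. The 1376 transcripts higher in head had a median of 213 in head against 15.6 in head plus chaetae, and summed to 15.1% and 1.31%. No read was found in the opposite library for 202 of those higher in head and 205 of those higher in head plus chaetae. The 95% interval of the read ratio, from an exact binomial interval of the reads, lay wholly past 4-fold for 93.0% and 94.2% of them. Among the 100 most abundant transcripts of the head library, 16 were higher in head, and among the 100 most abundant of head plus chaetae, 41 were higher there.

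Set beside the other tissues, the anterior libraries were a similar pair. Of the 36 pairs of libraries, only body wall and tail had a smaller share of transcripts past 4-fold, 11.9% against 17.6% for head and head plus chaetae. Head plus chaetae against body wall gave 19.3%, with 2181 transcripts higher in head plus chaetae and 983 in body wall, and head against tail, which came from the same pool of females, gave 22.4%. The head differed from the body wall at 26.5% of transcripts. The highest share was 51.0%, between head plus chaetae and blood vessel. These pairs share libraries, so that their shares are not independent.

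**Figure D2:**
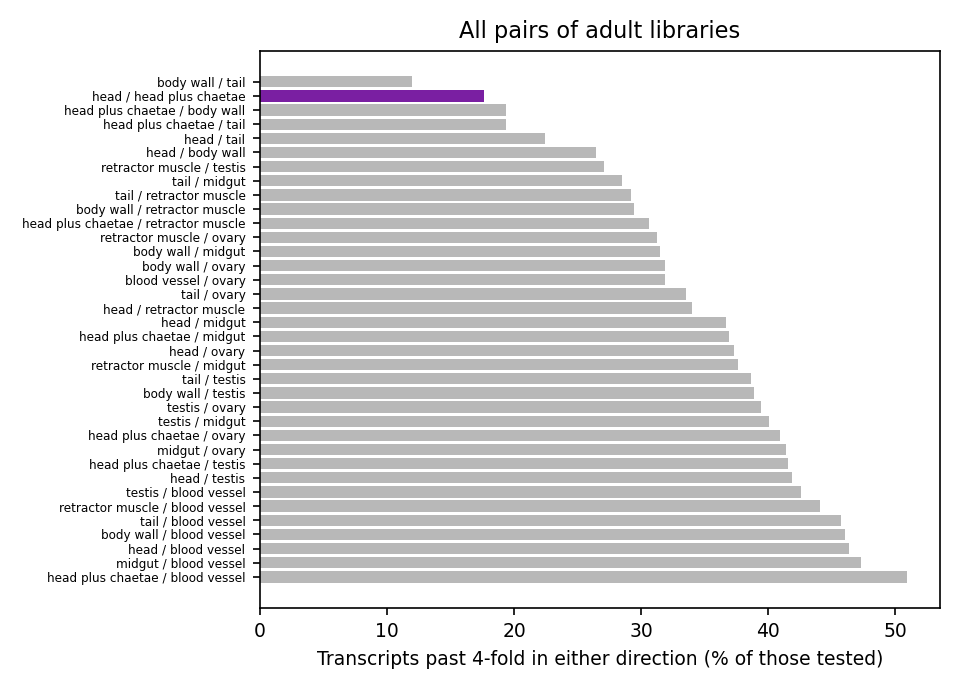
Share of transcripts past a 4-fold difference in either direction (horizontal axis, %) for each of the 36 pairs of libraries, ordered by that share, with head against head plus chaetae in purple. The purple bar, 17.6%, is the second lowest after body wall against tail at 11.9%, and the shares reach 51.0%.

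Transcripts higher in head plus chaetae were more often abundant in body wall, tail, retractor muscle and testis than those higher in head. A transcript was counted as found in another tissue when its level there, after 10 was added to both, was 50% or more of that in the higher anterior library. By this measure 1012 of the 1650 transcripts higher in head plus chaetae (61.3%, 95% exact binomial interval 58.9 to 63.7) were found in at least 1 of those 4 tissues, against 436 of the 1376 higher in head (31.7%, 29.2 to 34.2). Over all 17182 transcripts these shares were 87.8% measured against head plus chaetae and 84.1% against head, above those of either side. The transcripts of each side were chosen for a high level in 1 library, and what lowered their shares was not tested. Transcripts are not replicates of a tissue, so the intervals describe these libraries only. Whether fewer cells of a kind or less RNA per cell lowered a value cannot be told apart in bulk tissue.

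The body wall held the largest share of them. It had 39.4% of the transcripts higher in head plus chaetae and 14.8% of those higher in head, and on the CPM scale the same transcripts gave 42.6% and 14.5%. The tail held 28.5% and 19.99%, or 28.2% and 16.3% as CPM. The retractor muscle held 28.8% and 10.97%, which fell to 7.52% and 1.45% on the CPM scale, and the testis 15.2% and 9.74%, which fell to 5.03% and 0.436%. The shares for muscle and testis thus moved with the scaling of those columns far more than those for body wall and tail. In the 3 other tissues the order was the reverse. Midgut held 15.4% and 18.9%, ovary 12.4% and 14.5%, and blood vessel 6.42% and 15.0%. The ovary order turned with 50 in place of 10 added (10.7% and 5.996%) and at 25% of the level (26.7% and 21.9%), and with 50 added the midgut gave 10.5% and 10.8%. All these shares lay below those of all 17182 transcripts, which on the deposited scale ran over the 7 tissues from 53.6% (blood vessel) to 74.97% (tail) measured against head plus chaetae and from 55.05% to 75.8% against head. Body wall stood at 73.3% and 70.7%. As CPM the shares of all transcripts were 17.0% and 13.8% in retractor muscle and 8.81% and 8.30% in testis.

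**Figure D3:**
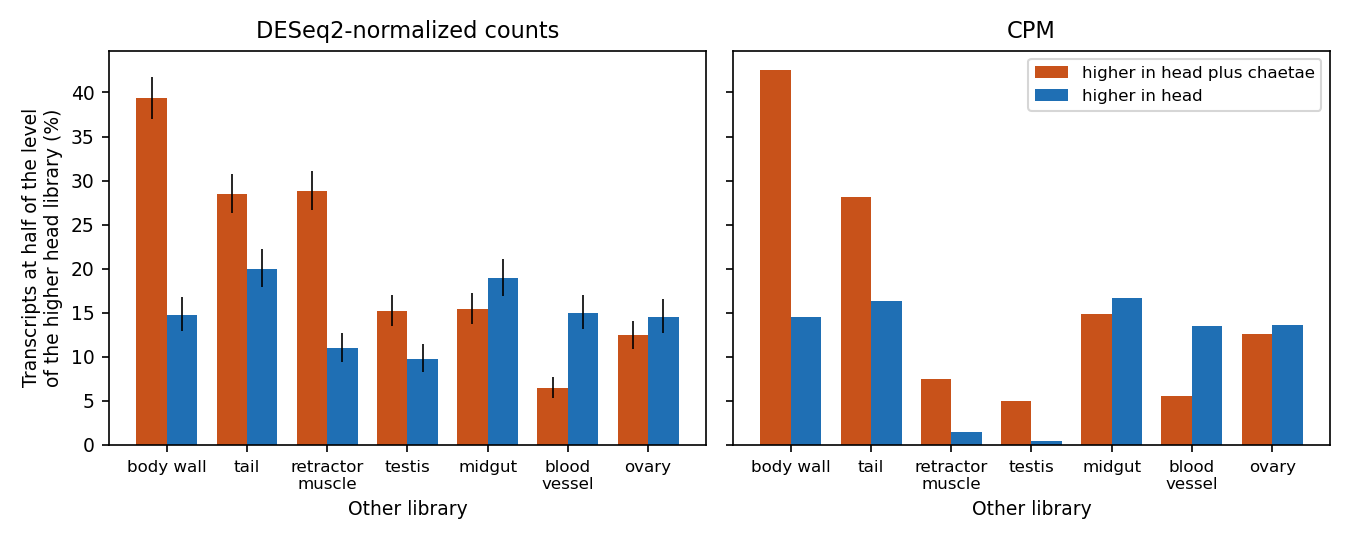
Share of the transcripts higher in head plus chaetae (orange, n = 1650) and higher in head (blue, n = 1376) whose level in each other library was 50% or more of that in the higher anterior library, on the deposited scale (left, lines are 95% exact binomial intervals) and as CPM (right). Orange exceeds blue in body wall, tail, retractor muscle and testis on both scales, and the bars of retractor muscle and testis are much lower as CPM.

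Taking the 4 tissues in combination, the commonest outcome on both sides was a transcript found in none of them. This held for 638 of the transcripts higher in head plus chaetae (38.7%) and for 940 of those higher in head (68.3%). The next commonest for head plus chaetae was body wall with tail, 220 transcripts, followed by body wall alone (151) and retractor muscle alone (111). The 220 transcripts of body wall and tail summed to 2.73% of the head plus chaetae library and the 111 of retractor muscle to 4.14%, so that fewer transcripts at higher levels made up the muscle side. On the head side the next commonest were tail alone (96) and body wall with tail (79).

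Part of each side was low in every tissue outside the anterior end. With a level under 25% of the anterior one in all 7 other libraries, 562 transcripts were restricted to the head (40.8%) and 321 to head plus chaetae (19.5%). The same share over all compared transcripts was not taken, nor that of transcripts without a read elsewhere, given below. These numbers therefore have no background beside them and do not show that either side exceeds it. They rest on the deposited scale only. The restricted transcripts summed to 9.48% of the head library and 10.01% of the head plus chaetae library. In the latter, 1 transcript, OFUSG18228.1, took 3.002% of the library. No read in any of the other 8 libraries was found for 14 transcripts in head, with values of 52.6 to 789, and for 12 in head plus chaetae, with values of 50.4 to 11974. Of these, 9 and 10 belonged to genes with more than 1 listed transcript.

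In each direction, the transcript with the largest difference among those found in the 4 tissues and the one among those restricted to the anterior library are named. OFUSG18228.1 was the most abundant transcript of the head plus chaetae library and was restricted to it. Its normalized count was 342835 there, 3.002% of the library, and 64.7 in head. It was 1361 in retractor muscle, 79.0 in tail, 57.1 in body wall, 38.7 in testis, 32.5 in midgut, 23.9 in ovary and 22.7 in blood vessel. The 571391 reads in head plus chaetae against 108 in head made a 5301-fold difference (95% interval 4396 to 6471), and no other tissue came near the head plus chaetae value, the closest being the retractor muscle.

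OFUSG09717.1 was shared with muscle. It stood at 51746 in head plus chaetae and 292401 in retractor muscle. In the other 7 libraries, head included, it stood between 2.07 and 7.63, with 2.98 in head, 6.57 in body wall, 4.98 in tail and 5.53 in testis. It was thus high in 2 of the 4 libraries labelled male and low in the other two, testis and blood vessel. Its 86243 reads against 5 gave a 17343-fold difference, with an interval of 7415 to 53298 that is wide because of the 5 reads. It took 0.453% of the head plus chaetae library and 0.518% of the retractor muscle library, so that relative to each library's sum the levels were close.

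OFUSG04082.1 was the counterpart on the head side. Its value was 34199 in head, 0.344% of the library, and 13.2 in head plus chaetae, a 2594-fold difference (1711 to 4134) from 57186 against 22 reads. Elsewhere it was highest in blood vessel at 239 and testis at 93.96, then 38.9 in ovary, 13.2 in midgut, 5.75 in tail, 4.75 in body wall and 0 in retractor muscle. It was the only listed transcript of its gene.

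OFUSG11964.4 was higher in head although its gene as a whole was not. It had 1684 in head and 0 in head plus chaetae, at least 936-fold higher in head when 3 reads are allowed in head plus chaetae, and it was also present in midgut (5379), testis (2824), tail (2101), body wall (1725), blood vessel (1108) and ovary (538), but 0 in retractor muscle. Its gene has 4 listed transcripts. Their sum was 2728 in head and 8102 in head plus chaetae, a log2 difference of −1.57, which is within 4-fold and of the opposite sign. The division of reads among transcripts of 1 gene was an estimate made by the pseudo-aligner.

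**Figure D4:**
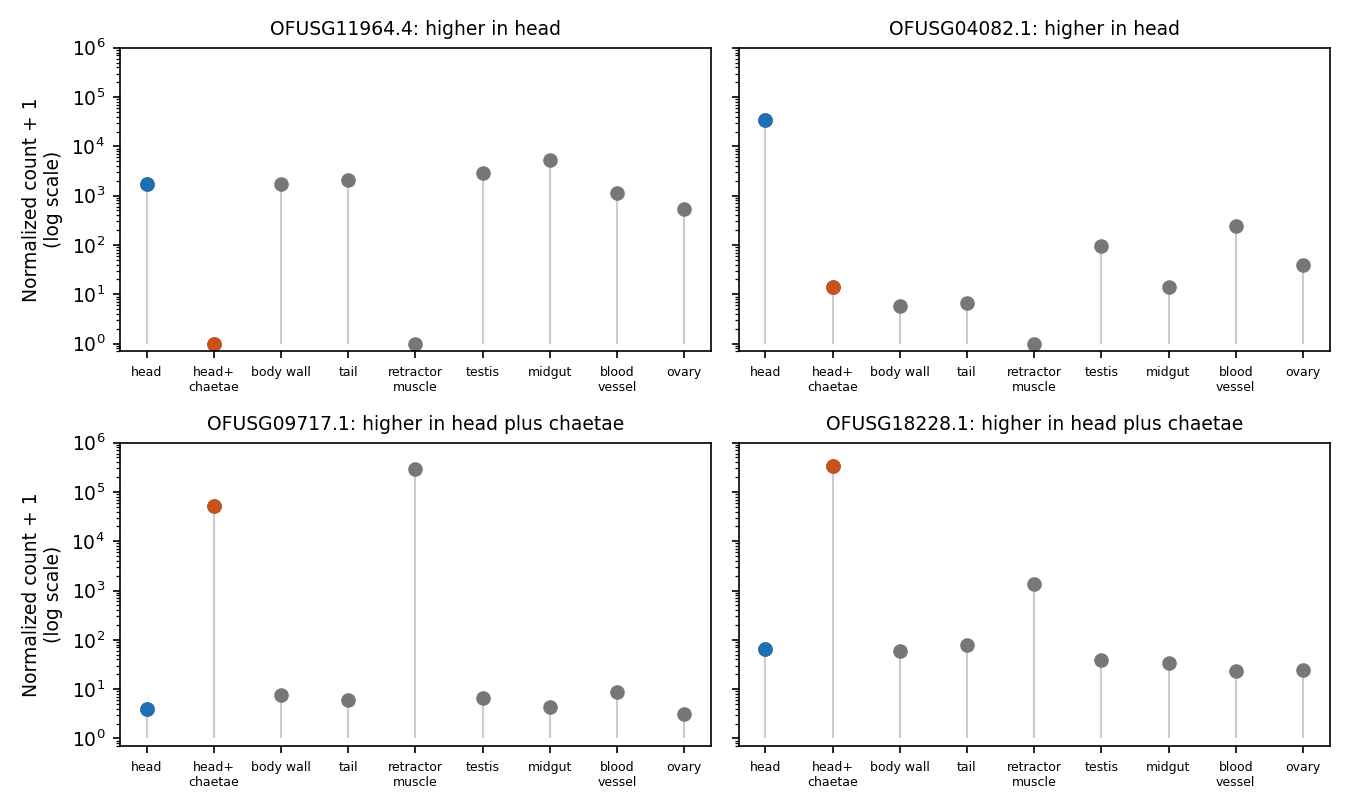
Normalized count plus 1 (log scale) of the 4 named transcripts in each of the 9 libraries, 1 library per point, with head in blue and head plus chaetae in orange. OFUSG04082.1 and OFUSG18228.1 are far higher in a single anterior library than elsewhere. The next highest values are 239 in blood vessel and 1361 in retractor muscle. OFUSG09717.1 stands out in head plus chaetae and retractor muscle, and OFUSG11964.4 is present at 538 to 5379 in 7 of the 9 libraries.

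The 20 largest differences on the head plus chaetae side summed to 6.09% of that library, and 12 of them were found in the retractor muscle. These had 6893 to 53360 in head plus chaetae, 16909 or more in retractor muscle and at most 15.0 in head, 22.0 in body wall and 39.5 in tail. In testis they were divided, with 7 over 1000 and 5 under 100; 5 were found there by the 50% measure, and 4 were higher in testis than in muscle. Their level in head plus chaetae was 3.65 to 59.1% of that in the muscle, with a median of 13.5%, and as CPM 18.1 to 292%, with a median of 66.8%. The other 8 were found in none of the 4 tissues, at 4291 to 342835 in head plus chaetae and at most 64.7 in head. Of these, 7 were restricted to head plus chaetae and 1 reached 30.5% of its level in testis. Of the 20 largest on the head side, 18 were restricted, at 1675 to 34199 in head and at most 92.4 in head plus chaetae.

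Sets of transcripts were also formed on the 7 other libraries alone, without either anterior column. The medians and counts past 4-fold do use the anterior columns, since members were kept for them by their level there. A set held transcripts at least 10 times higher in 1 tissue than in each of the other 6 (10 added to every value), or at least 10 times higher in both retractor muscle and testis than in the other 5, or at least 4 times higher in both tail and body wall. Medians and counts past 4-fold below are over members with 50 or more in either anterior library. Members thus enter through the anterior library where they are high. Negative medians of the log2 difference are higher in head plus chaetae, and the median of all 17182 transcripts was 0.09. Without the minimum, 216 members of the muscle and testis set were higher in head plus chaetae and 63 in head. For retractor muscle these were 46 and 29, for tail with body wall 390 and 194, and for ovary 42 and 90. For blood vessel they were 213 and 467, for midgut 221 and 273, and for tail 64 and 59.

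Transcripts of the retractor muscle set and of the set it shared with testis stood higher in head plus chaetae. The amount moved with how the sets were formed. The set shared by retractor muscle and testis had a median of −3.34 over 102 members, with 64 past 4-fold higher in head plus chaetae (62.7%) and 2 in head, and its 306 members summed to 2.05% of the head plus chaetae library and 0.10004% of the head library. The retractor muscle set had a median of −2.24 over 50 members, with 26 higher in head plus chaetae and 8 in head. It summed to 7.65% and 1.47%. OFUSG18228.1 and OFUSG09717.1 are both in this set, and without the former the sum in head plus chaetae was 4.64% and the median −2.17. The median of the shared set was −1.66 when formed at 4 times and −4.59 as CPM, and that of the retractor muscle set −1.30 and −5.41. The testis set had a median of −0.90 over 29 members and summed to 0.0792% of head plus chaetae and 0.0680% of head.

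The most abundant transcripts of the retractor muscle library, which made up still more of testis, were present in head plus chaetae at uneven shares of their muscle level. Their part in the differences above was not tested. The 10 most abundant transcripts of the retractor muscle library, which made up 66.5% of it and 74.8% of the testis library, summed to 0.913% of head plus chaetae, 0.00561% of head, and 0.00421 to 0.0637% of the other 5. In head plus chaetae 2 of these 10 exceeded 1% of their muscle value, the highest at 10.4%, and the median was 0.00109%, against 0.00130% in head.

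Trunk transcripts were more often higher in head plus chaetae, while the share of the library that they summed to was larger in head. The set shared by tail and body wall had a median of −0.93 over 493 members, 124 of them past 4-fold higher in head plus chaetae (25.2%) and 34 in head (6.90%). Over its whole 587 members the median level was 60.2% of that in the lower of its 2 tissues in head plus chaetae and 30.2% in head. Its sum was 6.76% of the head plus chaetae library and 7.64% of the head library, and its median was −0.17 when formed at 30 times. The tail set, which summed to 0.512% and 1.08%, had a median of −0.63 over 71 members, with quartiles on both sides of 0, and the body wall set, with 15 members in the comparison, was spread too widely for a direction, its median of 0.46 turning to −1.92 on the CPM scale.

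The median transcript of the remaining organs was higher in head. It was 1.97 for the ovary set (41 members, 20 past 4-fold higher in head and 4 in head plus chaetae), 1.33 for the blood vessel set (335 members, 52 and 3) and 0.76 for the midgut set (85 members, 18 and 9). The midgut set nevertheless summed to more of head plus chaetae (0.321%) than of head (0.223%), whereas the blood vessel set summed to 0.471% and 1.33% and the ovary set to 0.0261% and 0.117%. The ovary median turned to −1.32 over 3 members when the set was formed at 30 times. The blood vessel library was labelled male, as head plus chaetae was, and the ovary and midgut libraries female, as head was.

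**Figure D5:**
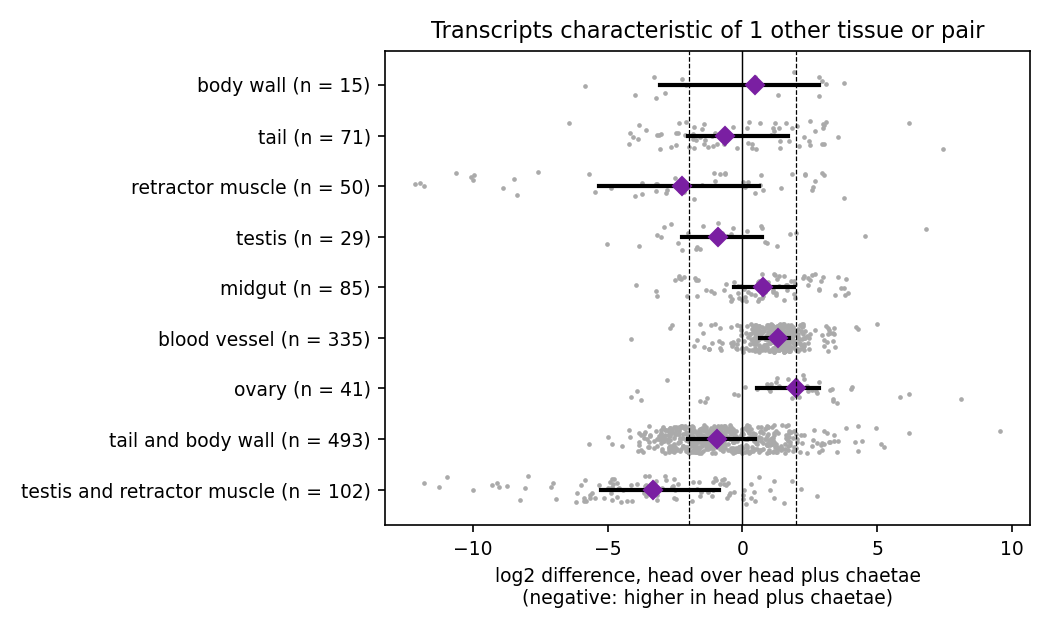
Log2 difference of head over head plus chaetae (horizontal axis) for members of 9 transcript sets chosen on the 7 other libraries; grey points are transcripts, diamonds medians, thick bars the quartiles, dashed lines 4-fold. The set of testis and retractor muscle lies furthest to the head plus chaetae side (median −3.34) and the ovary set furthest to the head side (1.97).

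The sex of the source was followed through the other libraries, since it differed between the 2 anterior ones. Among the transcripts higher in head, 111 (8.07%) had all 4 other female libraries above all 3 other male ones, against 1015 (5.91%) of the 17182. Among those higher in head plus chaetae, 26 (1.58%) had the 3 male libraries above the 4 female ones, against 554 (3.22%) of all. The opposite orders were seen for 36 (2.62%) of those higher in head and 63 (3.82%) of those higher in head plus chaetae. Such a complete order was uncommon among all the compared transcripts as well, and the other tissues include the gonads. The counts were made on the deposited scale only, and a part of sex in the differences was not tested.

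Adding the transcripts of each gene gave fewer differences. Of 15511 gene sums, 1077 (6.94%) were past 4-fold higher in head and 1261 (8.13%) in head plus chaetae. Transcripts that were the only one of their gene numbered 899 on the head side and 1058 on the head plus chaetae side. Among the others the gene sum kept the 4-fold difference for 222 of 477 (46.5%) and 274 of 592 (46.3%). Of 1452 genes with 2 or more transcripts compared, 307 had 1 or more higher in head and 374 in head plus chaetae. In 62 of them both occurred.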

How the data were processed

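According to the methods of the study, the authors trimmed the reads, pseudo-aligned them with kallisto and normalized the counts with DESeq2 (kallisto 0.44.0, DESeq2 1.34.0 and R 4.1.2 in the submitters' processing notes; the methods give another kallisto version). Each deposited value is a signal of 1 transcript in 1 library, taken as the read count divided by a size factor of the library. The sources used here do not state how the kallisto estimates entered DESeq2.

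Approximate reads were obtained by dividing by the value of 1 read, fitted by least squares to low values (at most 20 reads). Whole numbers, to a tolerance of 0.1 read, resulted for 98.6% of the low values in head, 99.8% in head plus chaetae and 93.1% in retractor muscle. With 1 library per tissue no count test was run. The 95% intervals are exact binomial ones. CPM used a pseudocount of 1 and a minimum of 5. The calls were run on simulated counts with 8-fold changes planted in 200 well-expressed transcripts. That simulation held counting error only. It had no spread between worms and no change planted near the limits of 4-fold or 50, so it does not bear on those. Named transcripts are the largest log2 difference in each direction among those found elsewhere (50% of the level in body wall, tail, retractor muscle or testis) and among those restricted (under 25% in all 7). The comparison, sets and rules were chosen with earlier results of these data known. Some items were examined after values were seen. These were the order by sex, the 10 most abundant transcripts of the retractor muscle library and the transcripts with no read elsewhere. They also included the testis levels and CPM of the 20 largest differences and the retractor muscle set without OFUSG18228.1. Computations used Python 3.11.15 with numpy 2.4.6, pandas 2.3.3 and scipy 1.17.1, and figures matplotlib 3.10.9.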

Additional observations from a re-analysis of the deposited data

How the results depend on the processing

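No paired analysis was possible because each tissue has 1 library. The counts higher in head and in head plus chaetae were 567 and 856 with 50 in place of 10 added to the values, 3583 and 3592 past 2-fold, and 567 and 739 past 8-fold. The median difference was 0.063 with no minimum level, 0.31 as CPM, and 0 by construction when it was set to 0. The share found in body wall, tail, retractor muscle or testis remained larger for transcripts higher in head plus chaetae than for those higher in head in every alternative run. For ovary alone the order turned with 50 added and at 25% of the level. On the head plus chaetae side it was 53.8% as CPM throughout, 77.8% at 25% of the level, 42.0% at the whole level and, in an alternative added after the data were seen, 47.0% without the retractor muscle and testis columns. On the head side these were 24.0%, 47.7%, 16.4% and 24.3%. The head side also gave 34.8% and 19.6% with 1 and 50 added, 34.2% with a minimum of 20 or none, 27.9% with a minimum of 100, and 26.9% with transcripts summed per gene. The causes were not tested. At 30 times in place of 10 the ovary set turned to a median of −1.32 over 3 members, and the body wall set gave −1.11 over 129 members at 4 times and −5.85 for 1 member at 30 times. As CPM the testis set gave no value. The retractor muscle set ranged from −1.30 (at 4 times) to −7.58 (at 30 times) with −5.41 as CPM, the set shared with testis from −1.66 (at 4 times) to −4.59 (as CPM), and the tail and body wall set from −0.17 (at 30 times) to −0.93. Leaving out the transcripts of the retractor muscle and testis sets, also added later, left 1364 and 1554 transcripts higher in head and in head plus chaetae. With 1 library per tissue, depth limits only counting error, and the spread between worms is unknown.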

Other observations

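Transcripts past 4-fold in one direction often had consecutive gene numbers, more so on the head plus chaetae side. Where the next gene number was also compared, it was higher in head plus chaetae as well for 310 of 996 genes (31.1%), against 10.04% of all genes compared. On the head side this held for 158 of 811 (19.5%), against 8.57%. Runs of 4 or more consecutive numbers were 28 for head plus chaetae and 6 for head. The longest on the head plus chaetae side had 10 genes, whose transcripts stood at 141 to 2730 there and 2.39 to 273 in head. The longest on the head side had 6 genes and includes OFUSG04082.1. Its transcripts stood at 54.5 to 34199 in head and at most 13.2 in head plus chaetae. Whether consecutive numbers are neighbouring genes, or copies of 1 gene that share reads, was not tested.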
